A study of Bos taurus with 15 samples.

Results

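The expression of 10 genes for fatty acid activation, synthesis, oxidation and lipid droplet coating was described in bovine blastocysts. The members were chosen by symbol as the rows for ACSL1, ACSL3, ACSL4, ACSL6, FASN, ACACA, SCD, CPT1A, PLIN2 and PLIN3 in the table of 10832 genes that the authors kept after filtering, and all 10 were in it. The study asked whether extracellular vesicles from the oviduct (oEVs) alter the embryonic transcriptome and whether frozen and fresh oEVs differ. Embryos produced in vitro were cultured to the day 7 blastocyst stage (the methods give a culture 1 day longer) with oEVs that had been frozen (FoEV), with oEVs used fresh (FeEV) or with no supplement (Co). The oEVs came from oviductal fluid of postovulatory cows collected at a slaughterhouse, and the frozen and the fresh portions were split from the same oviducts. Each treatment had 5 libraries of total RNA, and each library was made from 1 ng of RNA of a pool of 8 to 14 embryos, chosen for RNA quality among a larger number of pools. Nothing in the labels says that the pools of a treatment came from separate batches of oocytes, so the tests below measure the spread between these pools. In pooled embryos, fewer cells of a type and less RNA per cell cannot be told apart.

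Long-chain fatty acids enter metabolism after acyl-CoA synthetases, among them those of the ACSL family, have joined them to coenzyme A. New fatty acids are built from malonyl-CoA, which acetyl-CoA carboxylase (ACACA) makes and fatty acid synthase (FASN) uses to extend the chain. Stearoyl-CoA desaturase (SCD) then places a double bond in the saturated chain. Activated fatty acids are oxidized in mitochondria once carnitine palmitoyltransferase 1A (CPT1A) has passed them to carnitine, or are stored as triglyceride in lipid droplets coated by perilipins. Bovine oocytes and embryos are rich in lipid droplets, and droplet content is known to bear on how well embryos survive freezing.

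The libraries held 2136713 to 4058887 counted reads. Totals ran from 2571558 to 2977004 in Co, from 2136713 to 3808602 in FeEV and from 3392613 to 4058887 in FoEV, so every FoEV library was deeper than every Co library. Trophectoderm markers were present in all libraries, with all 7 of the list in the filtered table and a summed level of 6470 to 8410 CPM (reads of a gene per 1000000 counted reads) in Co, 6690 to 10500 in FeEV and 8060 to 12600 in FoEV. Most of that sum came from the keratins KRT8 and KRT18, with medians of 4740 and 3040 CPM. The other markers of the list had medians from 34.6 (CDX2) to 387 CPM (KRT19). Inner cell mass markers were present as well (5 of 5 in the filtered table, 312 to 477 CPM summed over all libraries). None of the 4 adipocyte markers was in the filtered table, and their sum was at most 1.56 CPM in any library, with leptin (LEP) at 0 reads and the fatty acid carrier FABP4 at 1 read in all libraries together. Of the cumulus and granulosa markers 3 of 7 passed the filter, with a summed level of 28.1 to 51.5 CPM and the cumulus matrix gene PTX3 at 1 read in all. Of the oviduct epithelium markers 2 of 5 passed, with 12.3 to 35.5 CPM summed.

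None of the 10 genes differed between treatments at an adjusted p under 0.05 by the quasi-likelihood F test of edgeR, in any of 4 comparisons. In FoEV treatment vs. Co, 0 of 10 passed the adjusted threshold, against 0.00923% of all genes (1 gene). An unadjusted p under 0.05 was found for 1 of 10 (PLIN2, lower), against 15.1% of all genes. The study, with its robust dispersion estimate, reported far more genes in this comparison at a false discovery rate of 0.05. In FeEV treatment vs. Co, 0 of 10 passed, against 0% of all genes, and 1 of 10 (CPT1A, higher) was under the unadjusted threshold, against 4.15%. In FoEV vs. FeEV treatment the counts were 0 of 10, against 0%, and 1 of 10 (ACSL1, higher), against 8.52%. In both oEV treatments vs. Co they were 0 of 10, against 0%, and 1 of 10 (CPT1A, higher), against 9.75%. For none of the 10 did the libraries of the treatments compared separate without overlap, against 2.6% of all genes in FoEV treatment vs. Co, 0.951% in FeEV treatment vs. Co, 1.5% in FoEV vs. FeEV treatment and 0.24% in both oEV treatments vs. Co. The share of members past the unadjusted threshold was therefore near or below the background except for FeEV treatment vs. Co, where it rested on 1 gene. The comparisons share libraries, so their values are set side by side only.

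The members were higher in the first-named treatment for 6 of 10 genes in FoEV treatment vs. Co, 6 of 10 in FeEV treatment vs. Co, 4 of 10 in FoEV vs. FeEV treatment and 7 of 10 in both oEV treatments vs. Co. The median log2 fold changes of the members were 0.05, 0.06, -0.02 and 0.03 in the same order, beside medians of 0.01, 0.0039, 0.0092 and 0.0072 over all genes. Among all genes 52.3%, 51.0%, 51.8% and 51.6% were higher.

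**Figure D1:**
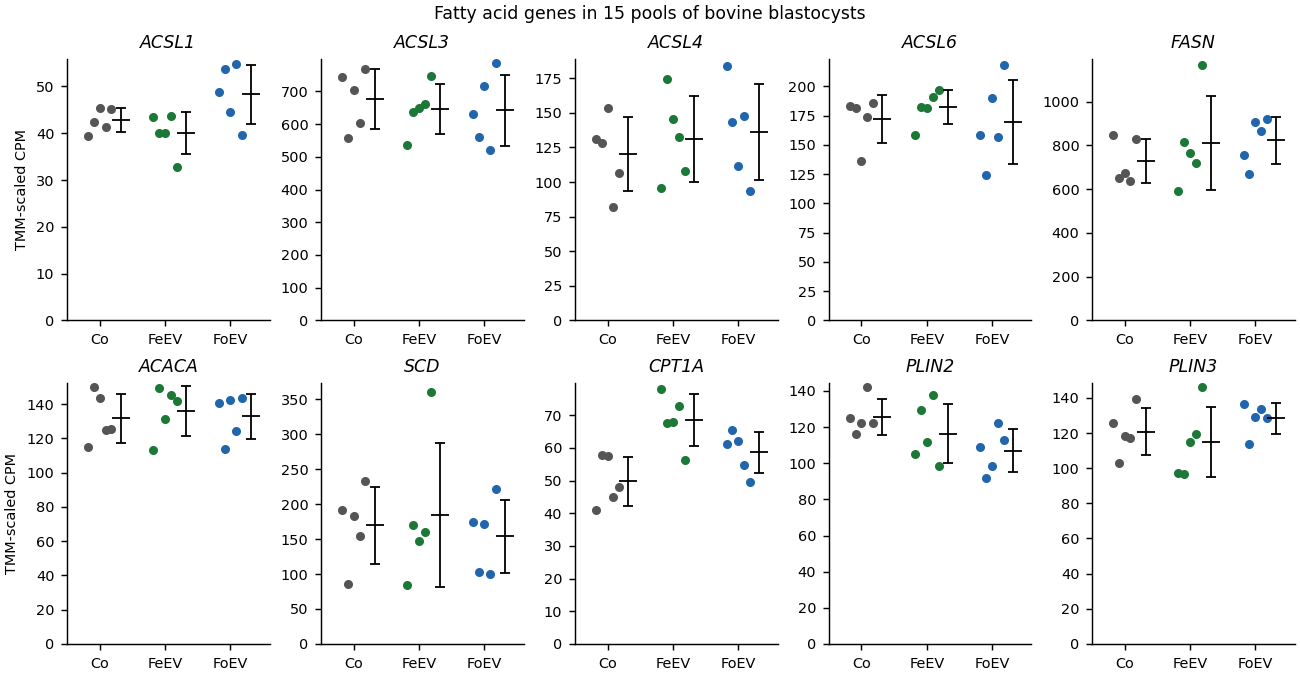
TMM-scaled CPM (y axis, linear, from 0) of the 10 genes in each of 15 libraries, by treatment (x axis). Points are libraries in the order of their replicate numbers, and the bar beside them is the mean with the SD (n = 5). SCD spans 84.9 to 359.8 CPM, and FeEV libraries of CPT1A lie mostly above Co.

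**Figure D2:**
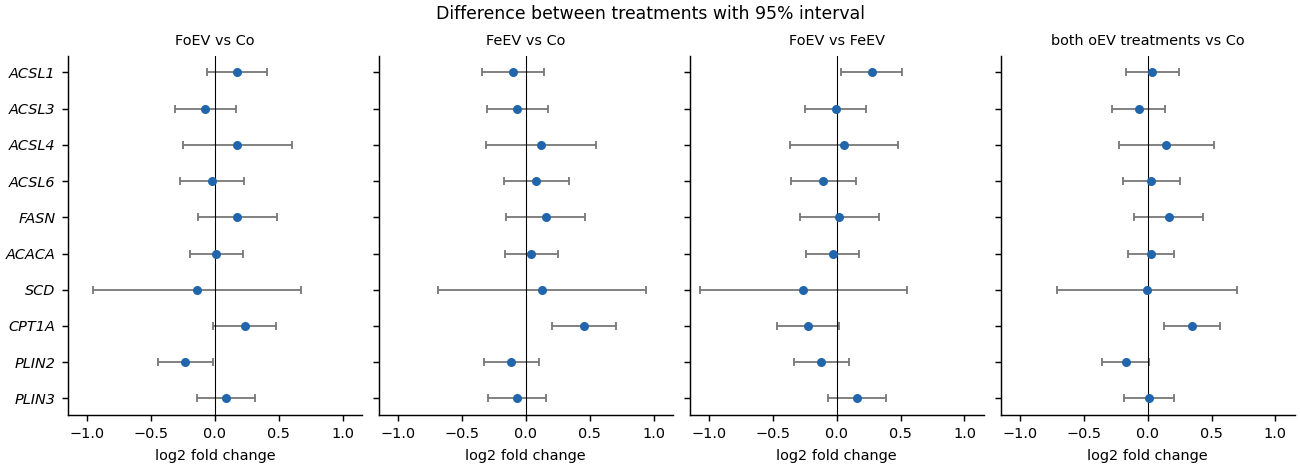
Fitted log2 fold change (x axis) with its 95% interval for each gene (y axis) in the 4 comparisons. The interval leaves out 0 for PLIN2 in FoEV treatment vs. Co, for CPT1A in FeEV treatment vs. Co and with both oEV treatments, and for ACSL1 in FoEV vs. FeEV treatment, and no gene passed after adjustment over all genes.

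CPT1A, the gate of long-chain fatty acids into mitochondrial oxidation, had the largest fitted difference from Co among the 10 genes in both FeEV treatment vs. Co and both oEV treatments vs. Co. Its level was 40.8, 57.7, 57.4, 45.0 and 48.0 CPM in Co replicates 1 to 5, 78.1, 67.6, 67.9, 72.9 and 56.4 CPM in FeEV and 61.1, 65.6, 62.0, 54.8 and 49.6 CPM in FoEV. FeEV replicates 1 to 4 exceeded every Co library and FeEV replicate 5 lay within the Co range, while 3 of 5 FoEV libraries exceeded every Co library. The 5 libraries averaged 49.8 ± 7.53 CPM (SD) in Co, and those of FeEV and FoEV 68.6 ± 8.03 and 58.6 ± 6.37. In FeEV treatment vs. Co the fitted difference of CPT1A was 0.46 on the log2 scale with a standard error of 0.12 (95% interval 0.21 to 0.71), a fold of 1.37, and edgeR gave it an adjusted p of 0.903 over all genes. A two-sided exact permutation test of the log2 CPM of this gene alone gave p = 0.0238 (n = 5 per treatment, smallest possible p 0.00794), which became 0.929 after adjustment over all genes. Only genes without overlap reach that smallest p, 103 of 10832 in this comparison, too few for any gene to pass after adjustment. The adjusted value of this test therefore could not have passed, here or in the other comparisons of 5 with 5 libraries below. For both oEV treatments vs. Co the fitted difference of CPT1A was 0.35 on the log2 scale with a standard error of 0.11 (adjusted p = 0.371 by edgeR), with 7 of 10 oEV libraries above every Co library. The exact permutation test of CPT1A with both oEV treatments gave p = 0.00799 (n = 10 and 5, smallest possible p 0.000333), adjusted over all genes to 0.425. For FoEV treatment vs. Co the log2 fold change of CPT1A was 0.23 (95% interval -0.01 to 0.48, edgeR adjusted p = 0.362), and for FoEV vs. FeEV treatment it was -0.22 (95% interval -0.47 to 0.02, edgeR adjusted p = 0.602). The adjusted threshold was not passed in any setting, and the call depended on the threshold. In FeEV treatment vs. Co the smallest adjusted p of CPT1A was 0.153, by the robust dispersion and likelihood ratio test that the methods name. For this comparison the methods set a cut-off on the likelihood ratio in place of an adjusted p. CPT1A passed it with a ratio of 13.1, as 1 of 10 members and of 38 genes in all (0.351%). The study itself lists CPT1A among the genes upregulated in FeEV treatment vs. Co. In FoEV vs. FeEV treatment, for which the same cut-off was set, 0 of 10 members passed, against 0.877% of all genes. DESeq2 gave CPT1A a log2 fold change in FeEV treatment vs. Co of 0.45 with an adjusted p of 0.523. CPT1A levels moved with the TMM scaling factor of the libraries within treatments (Pearson r = 0.712, Spearman rho = 0.779, 15 libraries, permutation p = 0.00898 and 0.00348, adjusted p = 0.0488 over 125 relations), and the part of this in the difference was not tested. Relations with the TMM factor were added after seeing the values.

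PLIN2, the perilipin found on lipid droplets of most cells, had the lowest mean in FoEV. Its level was 125.1, 116.1, 122.2, 142.1 and 122.3 CPM in Co, 104.9, 129.6, 112.0, 137.5 and 98.3 CPM in FeEV and 109.1, 92.1, 98.4, 122.2 and 112.6 CPM in FoEV, for replicates 1 to 5. Of the FoEV libraries 4 of 5 lay below every Co library, and FoEV replicate 4 lay within the Co range. The means of PLIN2 were 125.6 ± 9.81, 116.5 ± 16.6 and 106.9 ± 11.9 CPM in Co, FeEV and FoEV (SD, n = 5). In FoEV treatment vs. Co PLIN2 differed by -0.23 on the log2 scale (its standard error was 0.10, 95% interval -0.45 to -0.02, edgeR adjusted p = 0.291), a fold of 0.851. The exact permutation test of PLIN2 gave p = 0.0159 (two-sided, n = 5 per treatment), adjusted over all genes to 0.317. In FeEV treatment vs. Co the log2 fold change of PLIN2 was -0.11 (95% interval -0.33 to 0.10), and in both oEV treatments vs. Co it was -0.17 (95% interval -0.36 to 0.01, edgeR adjusted p = 0.561). Within treatments PLIN2 fell with the total count of the library (r = -0.723, rho = -0.614, 15 libraries, permutation p = 0.00441 and 0.0396, adjusted p = 0.0418), though r was -0.525 (permutation p = 0.0932) without the 2 libraries farthest in total count. The total is also the divisor of the CPM, and the part of this in the relation was not tested. Since every FoEV total exceeded every Co total, library depth and FoEV treatment cannot be told apart for PLIN2.

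PLIN3, a perilipin that is also found in the cytosol and coats nascent droplets, had 102.9 to 139.5 CPM in Co (median 118.4), 96.9 to 146.1 in FeEV (median 115.1) and 113.5 to 136.6 in FoEV (median 129.2). The ranges overlapped throughout, and the log2 fold changes of PLIN3 were 0.09, -0.07, 0.16 and 0.01 for FoEV against Co, FeEV against Co, FoEV against FeEV and both oEV treatments against Co, each with a standard error of 0.10 to 0.11. Within treatments PLIN3 rose with the summed level of the trophectoderm markers (r = 0.780, rho = 0.786, 15 libraries, permutation p = 0.00308 and 0.00302, adjusted p = 0.0418), and r was 0.645 (permutation p = 0.033) without the 2 libraries farthest in that sum. Since KRT8 and KRT18 made up most of that sum, it does not measure the share of trophectoderm cells. Level and sum were both divided by the TMM factor here, and the relation was added after seeing the values. The other perilipins were scarcely read. PLIN1, the droplet coat of adipocytes, had 33 reads over all 15 libraries, PLIN4 had 2 and PLIN5, which occurs in oxidative tissues, had 6, and none of them was in the filtered table.

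None of the 4 acyl-CoA synthetases passed the adjusted threshold. ACSL1, a synthetase known from liver, fat and heart, stood at 39.4, 42.5, 45.5, 41.3 and 45.1 CPM in Co, 43.5, 40.1, 40.0, 43.7 and 32.7 CPM in FeEV and 48.9, 53.7, 44.6, 54.8 and 39.5 CPM in FoEV, for replicates 1 to 5. FoEV replicates 1 to 4 exceeded every FeEV library and FoEV replicate 5 did not, so that the treatments overlapped. In FoEV vs. FeEV treatment ACSL1 differed by 0.27 on the log2 scale (its standard error was 0.11, 95% interval 0.04 to 0.51, edgeR adjusted p = 0.538), and the exact permutation test gave p = 0.0476 (two-sided, n = 5 per treatment), adjusted over all genes to 0.572. ACSL1 had log2 fold changes of 0.17 (95% interval -0.06 to 0.41) in FoEV treatment vs. Co and -0.10 (95% interval -0.34 to 0.14) in FeEV treatment vs. Co.

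ACSL3, a synthetase of the endoplasmic reticulum and of growing lipid droplets, averaged 676 ± 91.0 CPM in the 5 Co libraries, 646.1 ± 75.1 in those of FeEV and 642.1 ± 109.4 in those of FoEV (± SD, also below). The largest of its log2 fold changes in size was -0.07 (95% interval -0.31 to 0.17), for FoEV treatment vs. Co. ACSL4, which prefers arachidonic acid and similar polyunsaturated chains, had 120.4 ± 26.9 CPM in Co, 131.2 ± 31.2 in FeEV and 136.0 ± 34.9 in FoEV, with libraries from 82.3 to 183.8 CPM. Its log2 fold change in FoEV treatment vs. Co was 0.17, and the 95% interval ran from -0.25 to 0.60. ACSL6, a synthetase best known from brain and testis, had 172.1 ± 20.4 CPM in Co, 182.1 ± 14.6 in FeEV and 169.4 ± 36.1 in FoEV. Its widest difference was -0.10 on the log2 scale (95% interval -0.36 to 0.15), for FoEV vs. FeEV treatment. In a later assembly of the bovine genome the interval of ACSL3 holds the pseudogene LOC508628 and that of ACSL4 the pseudogene LOC781022, which had 1556 and 1299 reads over all libraries, so reads of these genes may have been split.

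For the enzymes of synthesis the treatments overlapped as well. FASN, which builds palmitate, stood at 849.2, 652.5, 675.0, 637.4 and 829.8 CPM in Co, 590.7, 815.9, 766.3, 719.6 and 1166 CPM in FeEV and 753.9, 669.0, 908.4, 867.0 and 919.0 CPM in FoEV, for replicates 1 to 5. Both the lowest and the highest of the 15 libraries were FeEV libraries, and 3 of 5 FoEV libraries exceeded every Co library. The log2 fold change of FASN was 0.18 in FoEV treatment vs. Co (95% interval -0.13 to 0.49, edgeR adjusted p = 0.595) and 0.16 in FeEV treatment vs. Co (95% interval -0.15 to 0.47), where it was -0.01 without FeEV replicate 5. ACACA, the carboxylase of the committed step, was the steadiest of the 10 genes, with 113.0 to 149.8 CPM over all libraries and log2 fold changes between -0.03 and 0.04. The 95% interval of ACACA in FoEV treatment vs. Co was -0.20 to 0.22.

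SCD, the desaturase that forms oleate, was the most variable of the 10 genes. Its level was 191.4, 86.0, 183.5, 154.1 and 233.5 CPM in Co, 84.9, 170.1, 147.0, 159.9 and 359.8 CPM in FeEV and 174.6, 102.2, 171.4, 100.2 and 221.1 CPM in FoEV, for replicates 1 to 5. Low libraries (Co replicate 2, FeEV replicate 1, FoEV replicates 2 and 4) and high libraries (replicate 5 of each treatment) occurred in all treatments, and the highest library was 4.24-fold above the lowest. The SD of log2 CPM within treatments was 0.61 for SCD, beside 0.06 from counting alone, and 4.1% of all genes had a larger one. The log2 fold change of SCD was -0.14 in FoEV treatment vs. Co (95% interval -0.95 to 0.68) and 0.13 in FeEV treatment vs. Co (95% interval -0.69 to 0.94), so that folds from 0.517 to 1.599 lay within the interval of the first. Without FeEV replicate 5 the second of these was -0.28.

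The spread within treatments differed between the genes. The SD of log2 CPM was 0.35 for ACSL4 and 0.26 for FASN, both above the median of 0.25 over all genes, and 0.22 for ACSL6, 0.21 for ACSL3, 0.19 for CPT1A, 0.18 for PLIN3, 0.16 for PLIN2, 0.16 for ACSL1 and 0.16 for ACACA. To see which genes moved together regardless of treatment, the mean of each treatment was subtracted from the log2 CPM of its libraries, and these deviations were compared over the 15 libraries. The comparison covered 125 relations, which were the 45 pairs of the 10 genes, the 50 pairs with SREBF1, SREBF2, SCAP, INSIG1 and INSIG2 (the sterol-sensing control of lipid synthesis) and 30 with the library total, the TMM factor and the trophectoderm markers. Of the 45 pairs 9 had an adjusted p under 0.05, and of the 50 pairs 10. The relations with the sterol control genes, the TMM factor and the trophectoderm markers were added after seeing the values, so their p are descriptive.

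SCD and ACSL3 moved together most closely of the 45 pairs. Pearson's r of their deviations was 0.900 and Spearman's rho 0.896 (15 libraries, permutation p = 2e-05 and 0.00011, adjusted p = 0.0025), and r was 0.903 (permutation p = 0.00035) without FoEV replicates 4 and 5, the libraries farthest in ACSL3. FASN moved with SREBF2, a transcription factor of sterol-regulated genes (r = 0.916, rho = 0.896, 15 libraries, permutation p = 0.00025 and 0.00043, adjusted p = 0.0156), and r was 0.847 (permutation p = 0.0048) without FeEV replicates 1 and 5. ACSL3 moved with FASN (r = 0.712, rho = 0.729, 15 libraries, permutation p = 0.00399 and 0.00517, adjusted p = 0.0418), and r was 0.847 (permutation p = 0.0017) without FoEV replicates 4 and 5. ACSL3 also moved with INSIG1, which holds the sterol-sensing machinery in the endoplasmic reticulum (r = 0.755, rho = 0.796, 15 libraries, permutation p = 0.00138 and 0.0012, adjusted p = 0.0418), and r was 0.779 (permutation p = 0.0018) without FoEV replicates 4 and 5.

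Some of the relations rested on a pair of FeEV libraries. In FeEV replicate 1 the deviations were -0.95 for SCD and -0.42 for FASN, and in FeEV replicate 5 they were 1.12 for SCD and 0.56 for FASN. FASN and SCD had r = 0.806 and rho = 0.761 (15 libraries, permutation p = 0.00331 and 0.00328, adjusted p = 0.0418), but r = 0.588 (permutation p = 0.0847) without these libraries. FASN and CPT1A moved in opposite directions, with r = -0.750 and rho = -0.714 (15 libraries, permutation p = 0.00303 and 0.011, adjusted p = 0.0418), and r was -0.640 (permutation p = 0.0569) without the same libraries. ACSL1 moved with CPT1A (r = 0.670, rho = 0.543, 15 libraries, permutation p = 0.00702 and 0.035, adjusted p = 0.0457), and r was 0.409 (permutation p = 0.155) without replicate 5 of FeEV and FoEV. Of the 9 pairs of members under the threshold, 5 still had a permutation p under 0.05 without the 2 farthest libraries.

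Measures of the libraries moved with some of the same genes. FASN fell with the TMM factor (r = -0.723, rho = -0.754, 15 libraries, permutation p = 0.00265 and 0.00474, adjusted p = 0.0418), opposite to CPT1A. The CPM were already divided by this factor, so level and factor were not measured independently. The trophectoderm sum used in the relations was divided by it as well. ACSL3 and SCD had r = 0.639 and 0.651 with the trophectoderm markers (rho = 0.664 and 0.671, 15 libraries), which were not under the adjusted threshold (permutation p = 0.0157 and 0.02 for r, adjusted p = 0.0653 and 0.0757). The TMM factors ran from 0.884 to 1.10. Their part and that of the summed trophectoderm markers in the relations between genes were not tested.

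**Figure D3:**
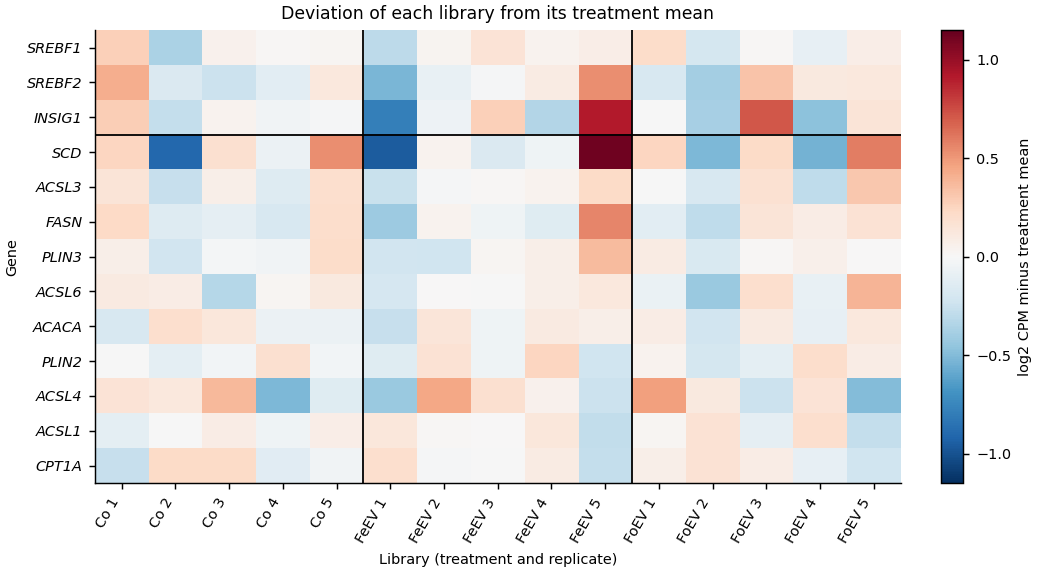
Log2 CPM minus the treatment mean (colour) of the 10 genes and of SREBF1, SREBF2 and INSIG1 (rows) in each library (columns, treatment and replicate). SCD reaches from -0.95 in FeEV replicate 1 to 1.12 in FeEV replicate 5, and the rows of ACSL3 and FASN share much of its pattern.

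**Figure D4:**
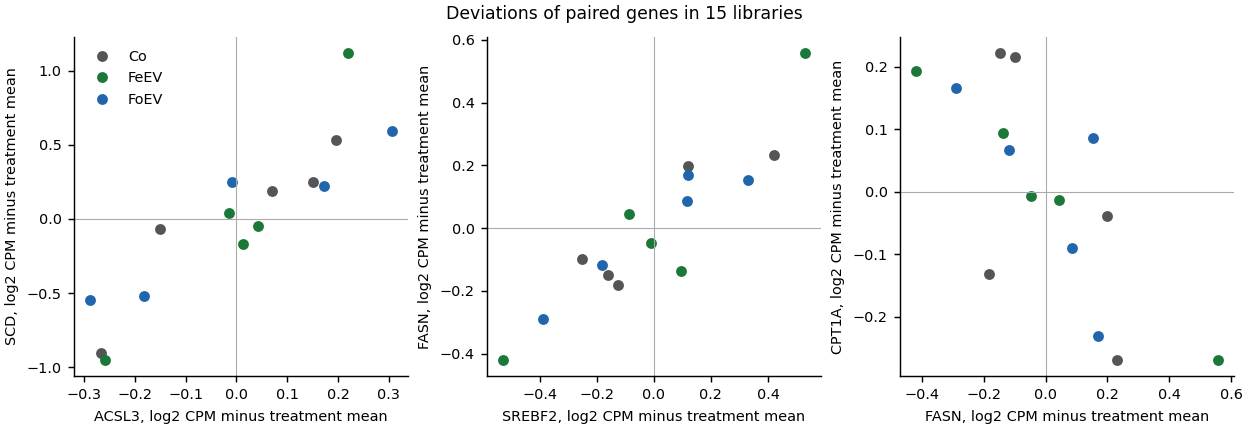
Deviations of log2 CPM from the treatment mean in 15 libraries for ACSL3 (x) and SCD (y), SREBF2 and FASN, and FASN and CPT1A, with points coloured by treatment. The first 2 pairs rise together (r = 0.900 and 0.916), and the last falls (r = -0.750).

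Among the other 9 members and 107 further genes of fatty acid handling (116 searched for each member), the gene with the deviations most like those of a member was SREBF2 for FASN, SLC25A1 for PLIN3 (r = 0.843, rho = 0.850), FADS2 for ACSL6 (r = 0.782, rho = 0.814) and ACLY for ACACA (r = 0.633). SCD and ACSL3 were nearest to each other, as were CPT1A and ACSL1. ACSL4 was nearest to CROT (r = 0.547) and PLIN2 to ACADM (r = 0.551), the weakest of these likenesses. These genes were picked as the closest of many over 15 libraries, so no p is given for this search. The p printed above for FASN with SREBF2, SCD with ACSL3 and CPT1A with ACSL1 belong to the relations compared there. Those p do not allow for the choice of the closest gene made here.

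Around the members, a list of 147 further genes of fatty acid handling was read, of which 107 were in the filtered table. At an adjusted p under 0.05 the edgeR test called 0 of 107 in each comparison, with the smallest adjusted p of 0.131 for ETFB in FoEV treatment vs. Co. Under an unadjusted p of 0.05, 16 of 107 were higher and 5 lower in FoEV treatment vs. Co, beside 8.18% and 6.88% of all genes, and 2 of the 107 (ETFB and CRAT) had every FoEV library above every Co library, while 2.6% of all genes did not overlap in either direction. Under that threshold there were 2 of 107 in FeEV treatment vs. Co, against 4.15% of all genes, in FoEV vs. FeEV treatment 10 of 107, against 8.52%, and in both oEV treatments vs. Co 5 of 107, against 9.75%, all near or below the background. The median log2 fold change of the 107 was 0.05, -0.0052, 0.07 and 0.0084 in the 4 comparisons, in the same order as for the members. The depth difference between FoEV and Co libraries applies to these counts as well.

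In FoEV treatment vs. Co the differences under the unadjusted threshold fell as follows, none of them called after adjustment by the quasi-likelihood test. The robust dispersion and likelihood ratio test did call ETFB, OXSM and SLC25A1 (adjusted p = 0.0355, 0.0224 and 0.0373). DESeq2 called RAB18 (adjusted p = 0.046). In the carnitine shuttle and beta-oxidation, where CPT1A belongs, 3 of 25 genes were higher and 0 lower. ETFB, a subunit of the flavoprotein that takes electrons from acyl-CoA dehydrogenases, averaged 32.5 ± 3.89 CPM over the FoEV libraries, with 23.7 ± 2.41 over those of Co (± SD, 5 each), a log2 fold change of 0.45. The study itself lists ETFB among the genes upregulated in FoEV treatment vs. Co. CRAT, carnitine acetyltransferase, had 36.3 ± 2.02 and 29.7 ± 2.12 CPM (log2 fold change 0.29, edgeR adjusted p = 0.260), and the carnitine carrier SLC25A20 had 10.6 ± 3.34 and 7.34 ± 2.103 CPM (log2 fold change 0.51, edgeR adjusted p = 0.315).

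In synthesis, elongation and desaturation 5 of 19 genes were higher and 2 lower in FoEV treatment vs. Co. The citrate carrier SLC25A1, which supplies carbon for synthesis, averaged 42.2 ± 7.10 CPM in FoEV libraries and 30.9 ± 3.63 in Co libraries (log2 fold change 0.45, edgeR adjusted p = 0.148). TECR, the last enzyme of chain elongation, had 43.0 ± 9.23 and 32.7 ± 3.05 CPM (log2 fold change 0.39), and the elongase ELOVL4 was lower, with 4.12 ± 0.977 and 7.03 ± 1.69 CPM (log2 fold change -0.75, edgeR adjusted p = 0.223). MECR and OXSM of mitochondrial fatty acid synthesis had log2 fold changes of 0.53 and 1.23, the latter on 5.58 ± 2.48 and 2.27 ± 1.97 CPM.

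Of the droplet and lipolysis genes, RAB18, a small GTPase of the droplet surface, had 55.2 ± 6.19 CPM in FoEV and 71.5 ± 9.19 in Co (log2 fold change -0.37, edgeR adjusted p = 0.140). In FoEV vs. FeEV treatment RAB18 had a log2 fold change of -0.37 (edgeR adjusted p = 0.450), and every FoEV library lay below every FeEV library, which had 71.7 ± 6.03 CPM. The only other gene of the 107 without overlap in that comparison was ESRRA, higher in FoEV (19.5 ± 4.56 and 13.2 ± 1.07 CPM, edgeR adjusted p = 0.486), while 1.5% of all genes did not overlap. AUP1, a droplet protein, was at 66.9 ± 11.7 and 54.1 ± 8.16 CPM in FoEV and Co (log2 fold change 0.31). The monoglyceride lipase MGLL was at 9.59 ± 3.46 and 15.7 ± 6.72 CPM (log2 fold change -0.70). PNPLA6, also of the lipolysis list, was higher, at 34.7 ± 4.37 and 27.7 ± 3.90 CPM (log2 fold change 0.32). BSCL2 of the droplet list was higher in FoEV than in FeEV (log2 fold change 0.40, edgeR adjusted p = 0.496). AGPAT2, which makes phosphatidic acid for triglyceride, had 17.8 ± 3.28 CPM in FoEV, 11.3 ± 3.14 in Co and 11.2 ± 3.04 in FeEV, with edgeR adjusted p of 0.168 against Co and 0.462 against FeEV.

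Of the uptake and control genes in FoEV treatment vs. Co, the fatty acid transporters SLC27A1 and SLC27A4 had log2 fold changes of 0.48 and 0.39 and the acyl-CoA binding protein ACBD5 -0.29, with edgeR adjusted p of 0.261 to 0.294. The nuclear receptors ESRRA and NR1H2 had log2 fold changes of 0.57 and 0.32, and MLXIPL, the carbohydrate-responsive regulator of lipogenesis, 0.57. DBI, the acyl-CoA binding protein, had 83.9 ± 16.0 CPM in FeEV, beside 103.0 ± 17.3 in Co and 108.9 ± 12.5 in FoEV (edgeR adjusted p = 0.496 for FoEV vs. FeEV treatment).

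**Figure D5:**
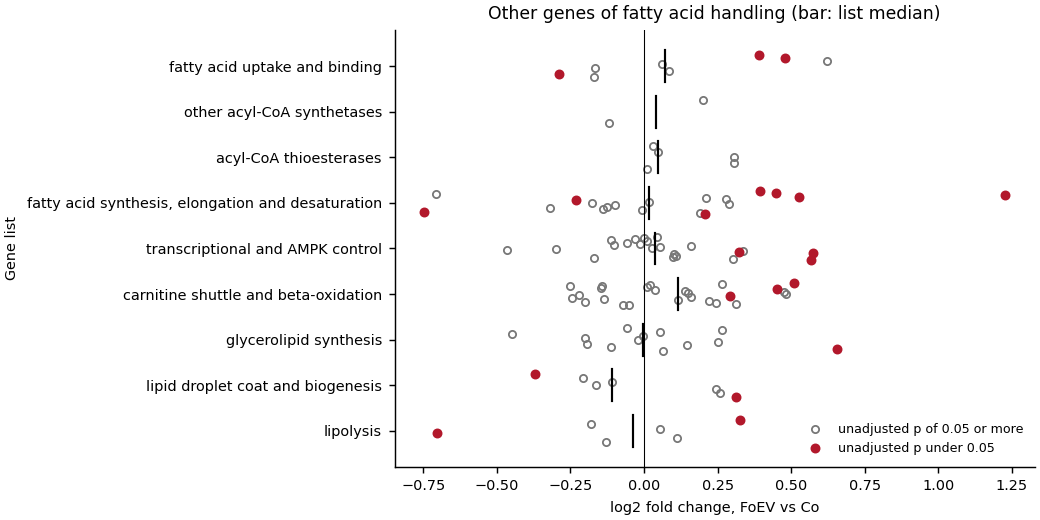
Log2 fold change in FoEV treatment vs. Co (x axis) of 107 further genes of fatty acid handling in 9 lists (y axis). Filled points have an unadjusted p under 0.05 (21 genes), open points do not, and the bar is the median of the list, which lies between -0.11 and 0.11.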

How the data were processed

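Total RNA of 15 embryo pools was sequenced, 5 per treatment, grouped by the sample titles. The authors mapped reads to ARS-UCD1.2 and deposited raw counts per gene, unnormalized, for 34773 genes and for the 10832 they kept. The submitters' processing notes list Trim Galore 0.4.3.1, HISAT2 2.1.0 and featureCounts 1.6.3, whereas the methods name QuasR Qcount, and strand handling at counting is not given in the sources used here. Further columns hold gene identifiers only.

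The filtered counts were fitted with edgeR 4.0.16 in R 4.3.3 (TMM scaling, estimateDisp, glmQLFit with robust=TRUE, 1 fit over 15 libraries, quasi-likelihood F test), with Benjamini-Hochberg adjustment over 10832 genes. CPM were scaled by TMM in the filtered table and by library totals for the marker sums given by treatment and genes outside it. The trophectoderm sum in the correlations was taken from TMM-scaled CPM. Log2 CPM used a prior count of 2. Exact permutation tests ran over 252 or 3003 assignments (scipy 1.17.1). Correlations of deviations used 100000 permutations within treatments, and 20000 without the 2 libraries farthest on the first measure. Alternatives were the robust dispersion and likelihood ratio test (also with the likelihood ratio cut-off of the methods, added after seeing the data), DESeq2 1.42.0, its size factors, other filters, only the groups compared, blocks and leaving out each library. Scripts were tested on simulated data. The members, lists and tests were chosen with earlier results of these data known, and the relations with sterol control genes, the TMM factor and the trophectoderm markers after seeing the values here. Named for a difference were all members and some further genes with an unadjusted p under 0.05, at most 5 per list and comparison. Levels were not compared between genes, as transcript lengths were not used here.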

Additional observations from a re-analysis of the deposited data

Results flagged for a closer look

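Each of the 10 genes was examined in each treatment for a library far from the other 4. Of these 30 groups 1 stood out, about as many as chance gives in 20 groups. ACSL6 in Co replicate 3 was the lowest Co library at 136.4 CPM, while the next lowest had 174.2 CPM and the highest 185.5 CPM. The gap to the nearest library was 0.77 of the range, above the critical value of 0.71. In FoEV, 1 library was lower still, at 123.9 CPM.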

How the results depend on the processing

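At an adjusted p under 0.05 the number of members called stayed at 0 of 10 in each comparison under every alternative run. With the likelihood ratio cut-off that the methods set for FeEV against Co and for FoEV against FeEV, an alternative chosen after seeing the data, 1 member (CPT1A) passed in the first and 0 in the second, and of the 107 further genes 0 and 1 (AGPAT2), against 0. Of the 107 further genes, 3 were called in FoEV treatment vs. Co by the robust dispersion and likelihood ratio test (ETFB, OXSM and SLC25A1) and 1 by DESeq2 (RAB18), against 0. The fit to only the groups compared was the same as the reported one for both oEV treatments vs. Co. Of 40 fold changes, 16 changed sign in at least 1 alternative, and 15 of these were smaller than their standard error.

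Libraries with the same replicate number in the titles had deviations that correlated at 0.034 to 0.186 on average, beside -0.047 to -0.008 for other pairs. Single same-numbered pairs ran from -0.291 to 0.441, and those of replicate 5 from 0.347 to 0.441. Libraries with the same library number in the descriptions averaged 0.072 to 0.097, beside -0.014 to -0.01 for other pairs. The pair at 0.441, replicate 5 of FeEV and FoEV, shares both numbers. The labels do not say whether these numbers mark a shared batch, and this was not tested. With the replicate numbers of the titles as a block, CPT1A in FeEV treatment vs. Co had a log2 fold change of 0.46 (edgeR adjusted p = 0.457). No call changed. With the library numbers of the descriptions as a replicate block, log2 fold changes turned for ACACA (-0.12 in FoEV treatment vs. Co, -0.093 in FeEV treatment vs. Co, -0.10 in both oEV treatments vs. Co), SCD (-0.22 in FeEV treatment vs. Co), FASN (-0.044 in FoEV vs. FeEV treatment), ACSL6 (-0.016 in both oEV treatments vs. Co) and PLIN3 (-0.022 likewise), and SCD in FoEV treatment vs. Co moved from -0.14 to -0.59 (adjusted p = 0.213). The robust dispersion test gave -0.14 for SCD in FeEV treatment vs. Co and -0.011 for PLIN3 in both oEV treatments vs. Co. The cause was not tested.

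Leaving out 1 library at a time, log2 fold changes ran as follows. In FoEV treatment vs. Co they were -0.13 to 0.072 for ACSL6, -0.033 to 0.063 for ACACA and -0.31 to 0.0033 for SCD. In FeEV treatment vs. Co they were -0.0068 to 0.22 for ACSL4, -0.011 to 0.25 for FASN, -0.0014 to 0.10 for ACACA and -0.28 to 0.31 for SCD. In FoEV vs. FeEV treatment they were -0.091 to 0.058 for ACSL3, -0.078 to 0.18 for ACSL4, -0.075 to 0.19 for FASN, -0.093 to 0.020 for ACACA and -0.45 to 0.14 for SCD. In both oEV treatments vs. Co they were -0.044 to 0.077 for ACSL6, -0.017 to 0.078 for ACACA, -0.21 to 0.13 for SCD and -0.043 to 0.067 for PLIN3. CPT1A kept its direction, with 0.39 to 0.52 in FeEV treatment vs. Co. PLIN2 in FoEV treatment vs. Co ran from -0.28 to -0.18 and no longer passed the unadjusted threshold without Co replicate 4, FoEV replicate 2 or FoEV replicate 3, nor did ACSL1 in FoEV vs. FeEV treatment without FeEV replicate 5, FoEV replicate 2 or FoEV replicate 4. Intervals cover the spread of 5 pools, and no collapsing of reads by molecular identifiers is described in the sources used here.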

Other observations

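Several genes known from fat, liver and muscle were read too rarely for the filtered table, which left out 40 of the 147 further genes of fatty acid handling, 2 of them because the reference table had no entry for the symbol. PPARG, the nuclear receptor of fat cells, had 22 reads over the 15 libraries and at most 0.979 CPM in any library. The fatty acid translocase CD36 had 126 reads, lipoprotein lipase LPL had 49 and the liver and gut synthetase ACSL5 had 13. Of the droplet proteins, CIDEC had 6 reads and CIDEA 65. The triglyceride synthase DGAT2 had 180 reads (0.936 to 7.39 CPM) and was outside the filtered table, whereas DGAT1 had 739 reads (10.1 to 21.3 CPM) and was in it. For oxidation, CPT1B, the muscle form of CPT1A, had 130 reads and CPT1C 107. For synthesis, ACACB, the carboxylase whose malonyl-CoA restrains CPT1 at the mitochondrion, had 52 reads. Levels are CPM and not per length, so they do not rank these genes against each other.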
